A study of Rattus norvegicus with 3 samples.

Results

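Regions bound by the glucocorticoid receptor (GR) whose middle lay within 1000 bases of a gene start were examined, together with the RNA levels of the genes they were paired with. An integrated sheet pairs regions from a GR ChIP-seq experiment with genes and gives the distance to each gene's start. For each distinct region the pair with the smallest absolute distance was kept, and 3822 of the 8514 distinct regions (44.9%) fell within the window. The members were chosen by position alone, so their signal, their CpG islands and the expression of their genes took no part in the choice. The RNA was that of ventricular myocytes, the contractile cells of the heart, taken from newborn Sprague Dawley rats. Cells received 100 nM dexamethasone (Dex), a synthetic glucocorticoid, for 1 h or for 24 h, and the control received the ethanol vehicle. Each of the 3 groups was 1 sample, whose title speaks of 2 libraries, and 1 pooled FPKM value (fragments per kilobase of transcript, scaled to library depth) was deposited per gene and group. No treatment time is given for the control, so Dex and time in culture cannot be told apart, and both Dex times share that control.

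GR is a ligand-activated transcription factor of the nuclear receptor family. With hormone bound it moves into the nucleus and binds as a dimer to glucocorticoid response elements (GREs), palindromes with arms related to AGAACA, or it is tethered by other factors on DNA. Gene starts in mammals often lie in CpG islands, stretches rich in G, C and CpG dinucleotides that carry sites for Sp1, ETS and NRF1 factors and stay open in many cell types. Whether GR signal at such a start goes with a change of the gene's RNA is the question that the paired sheet and expression table address. The ChIP belongs to another series and its Dex time is not given, so the GR signal and the RNA may differ in treatment.

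No cardiomyocyte marker gene had a member region. All 7 fixed cardiomyocyte markers were expressed, with control levels between 27.2 and 8776 FPKM, and their summed level was 17196 FPKM at 1 h, 12719 FPKM at 24 h and 18400 FPKM in control. Of the 7 only Myl2, the ventricular myosin light chain, was called, lower at 24 h, with 8731 FPKM at 1 h, 2456 FPKM at 24 h and 8776 FPKM in control. The summed level of 4 erythroid marker rows was 182 FPKM at 1 h, 194 FPKM at 24 h and 90.4 FPKM in control, and 3 of these rows were called higher at both times. Of 6 endothelial markers, summing to 140 FPKM at 1 h, 208 FPKM at 24 h and 142 FPKM in control, 3 were called higher at 24 h. Of 8 macrophage and leukocyte marker rows, summing to 128 FPKM at 1 h, 195 FPKM at 24 h and 122 FPKM in control, 3 were called higher and 1 lower at 24 h. No defining marker of these lists was at 0 in the control, where the lowest was 0.054 FPKM. The part of these cells in the results was not tested, and in bulk RNA fewer cells of a type and less RNA per cell cannot be told apart. Fibroblast markers summed to 8381 FPKM at 1 h, 7301 FPKM at 24 h and 8581 FPKM in control, with 1 called higher at 24 h, and smooth muscle markers to 7389, 9336 and 8522 FPKM, with 1 called lower at 24 h. Of all these markers only Vim, the mesenchymal intermediate filament, had a member region.

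The regions clustered just downstream of the start. Of the 3822 members 2552 (66.8%) lay downstream, 1268 upstream and 2 at the start itself, and the median distance was 100 bases downstream, with quartiles at −61.75 and 255 bases (negative values upstream). Within 250 bases of the start lay 2321 members (60.7%). A CpG island was counted in 3565 of 3822 members (93.3%), against 298 of 886 regions farther upstream (33.6%), 237 of 916 regions 1 to 10 kb downstream (25.9%) and 151 of 2890 regions more than 10 kb downstream (5.22%). Members therefore made up 83.9% of all 4251 regions with a CpG island. The island share was 96.8% from 0 to 250 bases and 97.1% from there to 500 bases downstream of the start, and 80.3% in the outermost upstream bin from 501 to 1000 bases.

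**Figure D1:**
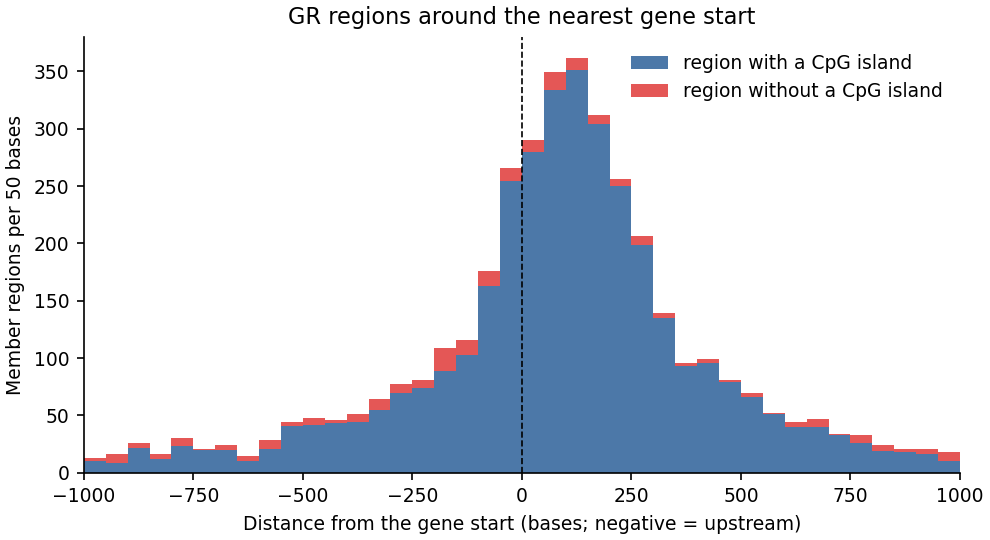
Number of member regions per 50 bases (y axis) by the distance of the region from the nearest gene start in bases (x axis, negative values upstream), stacked by whether the authors counted a CpG island in the region. The median is 100 bases downstream, and 60.7% of regions lie within 250 bases of the dashed start line.

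Promoters at regions within 250 bases of a start show sequence near the members, not the regions themselves. They are given for 8 genes called changed after 1 h of Dex. These have the greatest folds among the genes named by the rule that had a matched RefSeq promoter. Abra, Ier3 and Klf10, named below and called at 1 h with regions as near, had none matched and are not shown. Promoters are also given for the 3 tallest regions with a RefSeq promoter in the table. The still taller region at Plekha7 is named only. The stretches run from 250 bases before to 50 bases after the RefSeq gene start and are written in the direction of the gene. Their build is GRCr8, a later one than that of the rn5 coordinates of the regions. The median member lay 100 bases downstream of its start, so a stretch and its region may overlap only in part. Capitals mark every match, on either strand, to 9 motifs: the GRE palindrome GNACANNNTGTNC, its arm AGAACA, the GC box GGGCGG bound by Sp1, CCAAT bound by NF-Y, CCGGAAG bound by ETS factors, the NRF1 motif (GCGCA and GCGC with any 1 base between), the CRE TGACGTCA, the AP-1 site TGANTCA and the TATA box TATAAA. A GRE palindrome can contain the arm, and neighbouring matches run together in capitals. Nfkbia (inhibitor of NF-kB), Rgcc (a cell cycle regulator), Errfi1 (an inhibitor of EGF receptor signalling) and Klf9 (a Krüppel-like factor) were called higher at 1 h. Phlda1 (a pleckstrin-homology-like protein), Plk2 (a polo-like kinase), Hes1 (a repressor downstream of Notch) and Irf1 (an interferon regulatory factor) were called lower.
Nfkbia: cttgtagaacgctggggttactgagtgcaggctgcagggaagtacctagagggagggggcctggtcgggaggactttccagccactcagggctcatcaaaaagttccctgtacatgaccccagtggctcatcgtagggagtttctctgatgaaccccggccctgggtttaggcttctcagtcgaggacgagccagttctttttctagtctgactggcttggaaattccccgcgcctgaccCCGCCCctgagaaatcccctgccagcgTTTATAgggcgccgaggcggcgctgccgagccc
Rgcc: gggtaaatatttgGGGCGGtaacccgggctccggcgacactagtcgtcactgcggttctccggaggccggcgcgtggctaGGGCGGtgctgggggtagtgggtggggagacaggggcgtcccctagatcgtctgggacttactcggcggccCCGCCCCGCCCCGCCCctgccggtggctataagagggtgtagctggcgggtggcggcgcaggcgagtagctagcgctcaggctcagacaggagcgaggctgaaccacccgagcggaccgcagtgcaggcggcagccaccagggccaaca
Errfi1: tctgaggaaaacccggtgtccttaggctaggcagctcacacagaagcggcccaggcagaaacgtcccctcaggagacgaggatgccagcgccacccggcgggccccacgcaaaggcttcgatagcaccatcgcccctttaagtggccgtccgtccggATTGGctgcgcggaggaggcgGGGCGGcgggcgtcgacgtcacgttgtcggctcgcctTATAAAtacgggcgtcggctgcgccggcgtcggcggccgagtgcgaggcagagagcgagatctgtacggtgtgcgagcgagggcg
Klf9: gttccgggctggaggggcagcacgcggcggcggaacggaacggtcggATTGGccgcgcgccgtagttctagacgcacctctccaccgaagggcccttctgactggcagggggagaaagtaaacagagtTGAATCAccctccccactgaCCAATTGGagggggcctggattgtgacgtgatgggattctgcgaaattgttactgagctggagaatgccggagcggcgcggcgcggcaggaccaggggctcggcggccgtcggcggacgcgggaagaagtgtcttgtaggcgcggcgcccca
Phlda1: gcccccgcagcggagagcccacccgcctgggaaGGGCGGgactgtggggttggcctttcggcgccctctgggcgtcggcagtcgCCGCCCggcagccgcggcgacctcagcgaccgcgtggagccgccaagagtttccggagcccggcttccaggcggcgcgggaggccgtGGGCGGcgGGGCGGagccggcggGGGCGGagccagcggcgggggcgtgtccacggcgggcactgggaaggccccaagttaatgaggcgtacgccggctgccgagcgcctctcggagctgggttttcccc
Plk2: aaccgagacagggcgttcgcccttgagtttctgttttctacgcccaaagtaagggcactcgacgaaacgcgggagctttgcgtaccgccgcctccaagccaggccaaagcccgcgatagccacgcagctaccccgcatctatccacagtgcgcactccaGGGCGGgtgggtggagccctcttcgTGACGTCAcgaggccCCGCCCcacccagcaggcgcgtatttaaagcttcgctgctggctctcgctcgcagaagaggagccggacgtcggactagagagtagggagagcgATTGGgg
Hes1: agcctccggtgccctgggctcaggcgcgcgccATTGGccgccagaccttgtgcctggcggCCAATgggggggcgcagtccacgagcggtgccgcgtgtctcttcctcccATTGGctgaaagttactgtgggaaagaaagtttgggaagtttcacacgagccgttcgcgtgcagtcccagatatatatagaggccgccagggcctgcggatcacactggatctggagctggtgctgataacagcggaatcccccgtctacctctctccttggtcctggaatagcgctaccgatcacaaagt
Irf1: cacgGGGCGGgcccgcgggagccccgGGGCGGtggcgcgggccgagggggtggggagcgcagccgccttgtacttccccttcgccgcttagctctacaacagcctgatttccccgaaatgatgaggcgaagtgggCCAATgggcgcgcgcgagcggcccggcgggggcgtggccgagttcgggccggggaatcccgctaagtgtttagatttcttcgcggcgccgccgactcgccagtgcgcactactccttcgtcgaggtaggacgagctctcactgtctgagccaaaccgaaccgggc
Adamts10: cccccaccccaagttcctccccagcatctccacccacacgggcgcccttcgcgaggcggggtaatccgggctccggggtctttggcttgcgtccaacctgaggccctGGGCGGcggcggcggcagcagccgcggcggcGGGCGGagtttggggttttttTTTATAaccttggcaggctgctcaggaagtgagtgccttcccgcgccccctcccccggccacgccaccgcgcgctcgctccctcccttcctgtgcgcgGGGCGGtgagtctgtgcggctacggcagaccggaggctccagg
LOC100910949: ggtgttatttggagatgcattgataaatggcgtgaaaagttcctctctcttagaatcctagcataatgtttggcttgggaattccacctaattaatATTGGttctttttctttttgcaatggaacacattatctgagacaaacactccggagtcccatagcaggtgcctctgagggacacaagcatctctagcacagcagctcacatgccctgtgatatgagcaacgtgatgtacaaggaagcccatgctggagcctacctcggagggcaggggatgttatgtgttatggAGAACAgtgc
Spice1: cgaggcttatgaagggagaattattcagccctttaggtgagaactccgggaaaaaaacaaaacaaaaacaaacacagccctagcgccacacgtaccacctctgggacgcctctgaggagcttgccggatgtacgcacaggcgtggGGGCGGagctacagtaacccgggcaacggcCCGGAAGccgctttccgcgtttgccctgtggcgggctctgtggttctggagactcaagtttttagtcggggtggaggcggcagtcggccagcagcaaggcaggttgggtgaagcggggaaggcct
The genes called higher lie at chr6:78597023-78597322 (Nfkbia, minus strand), chr15:61084359-61084658 (Rgcc, minus strand), chr5:166606591-166606890 (Errfi1, plus strand) and chr1:230126396-230126695 (Klf9, plus strand). The genes called lower lie at chr7:48853440-48853739 (Phlda1, plus strand), chr2:43702286-43702585 (Plk2, plus strand), chr11:84212996-84213295 (Hes1, minus strand) and chr10:38417685-38417984 (Irf1, plus strand). The promoters at the tallest regions lie at chr7:15033685-15033984 (Adamts10, plus strand), chr7:21440234-21440533 (LOC100910949, minus strand) and chr11:69838151-69838450 (Spice1, minus strand).
None of these 11 stretches held the GRE palindrome, and of the 11 only LOC100910949 held the arm, at position 40 from the start. Among all matched promoters of genes called at 1 h, the arm stood in 2 of the 12 called higher and in 1 of the 7 called lower, which are not shown. GC boxes stood in 8 of the 11, with 5 each in Rgcc and Phlda1, and Hes1 and Klf9 held 3 CCAAT boxes each. The Plk2 stretch carried a CRE starting 66 bases before the start, and the Errfi1 stretch a TATA box starting 35 bases before it. A match is a description of letters and not a bound site, and no match says only that these letters are not in this window.

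Over all members within 250 bases of a start, 1915 promoters could be taken from RefSeq for 2311 symbols (82.9%). Their median GC content was 63.3%, against 52.3% over all 27457 rat promoters of the table, and their median observed-to-expected CpG ratio was 0.842, against 0.417. GC boxes stood in 70.5% of the member promoters and in 34.9% of all promoters. ETS motifs stood in 24.8% of member promoters against 9.22% of all, NRF1 motifs in 13.0% against 4.71%, and the CRE in 4.13% against 1.91%. The opposite held for the TATA box, with 5.69% of member promoters against 14.3% of all, for the AP-1 site, with 3.71% against 7.33%, and for the GRE arm, with 10.6% against 20.1%. CCAAT stood in 36.4% of member promoters and in 37.7% of all. These shares were not tested. Base composition differs between both sets, and its part in the shares was not tested either. For members without a CpG island fewer than 80% of symbols had a promoter, too few for such a comparison.

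The full GRE palindrome stood in 13 of the 1915 member promoters (0.679%), against 0.422% of all promoters. Of the 92 promoters whose region had a height of at least 30, 4 held it (4.35%). Whether a site lay within its region was not checked, and sequence beyond the stretches was not searched. For Stx17, as 1 example, the site began 224 bases before the start and the region lay 132 bases after it. All 13 sites are shown. They are given 5′ to 3′ with the fixed letters of the palindrome in capitals, in order of falling height.
Map3k6: GcACAggcTGTtC
Fam107a: GgACAtggTGTtC
Psma6: GgACAataTGTtC
Yeats4: GgACAataTGTtC
Rabggta: GaACAgccTGTcC
Fam8a1: GtACAcagTGTcC
Rpo1-3: GgACAgaaTGTgC
Trim63: GaACAatcTGTtC
Gmpr: GaACAcggTGTgC
Fam82a2: GcACAttcTGTgC
Stx17: GaACAcaaTGTgC
Nhp2l1: GtACAcgaTGTgC
LOC100362342: GcACAgtcTGTtC
The 4 sites of the tall regions were those of Map3k6, Fam107a, Psma6 and Yeats4. The Map3k6 site began 181 bases before the RefSeq start, and its region, of height 54.8, lay 158 bases before the authors' start. For Fam107a the site began 210 bases before the start and the region, of height 44.1, lay 195 bases before it. The Psma6 site began 222 bases and its region, of height 40.8, lay 174 bases before the start. For Yeats4 the site began 19 bases after the start and the region, of height 36.4, lay 51 bases before it. Trim63, which encodes the muscle ubiquitin ligase MuRF1, had its palindrome 219 bases before the start and its region, of height 23.8 and without a CpG island, 135 bases before it. Map3k6, a MAP kinase kinase kinase, had 8.44 FPKM at 1 h, 12.9 FPKM at 24 h and 6.98 FPKM in control, and was called higher at 24 h. Fam107a, a known glucocorticoid-responsive gene, had 1.44 FPKM at 1 h, 3.24 FPKM at 24 h and 0.668 FPKM in control and was also called higher at 24 h. Trim63 had 35.5 FPKM at 1 h, 40.8 FPKM at 24 h and 29.2 FPKM in control and was not called at either time. Gmpr, a GMP reductase with a palindrome 70 bases before the start and a region of height 22.0, had 50.4 FPKM at 1 h, 33.7 FPKM at 24 h and 54.8 FPKM in control and was called lower at 24 h. Psma6, a proteasome subunit, had 181 FPKM at 1 h, 168 FPKM at 24 h and 151 FPKM in control and was called at neither time. Yeats4, Rabggta, Rpo1-3, Stx17 and Nhp2l1 were not called at either time, and Fam8a1, Fam82a2 and LOC100362342 had no expression row. No gene of these sites was called at 1 h. Over all tested genes 0.863% were called at 1 h and 6.22% at 24 h.

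The ChIP signal at the gene starts was lower than elsewhere, and so was its ratio of Dex over DMSO, the vehicle named for the ChIP control. The height of a region, the authors' highest average signal, had a median of 19.7 over the members (quartiles 16.9 and 22.9), against 21.4 for regions farther upstream, 21.5 for regions 1 to 10 kb downstream and 23.3 for regions over 10 kb downstream. A height of at least 30 was reached by 193 members (5.05%), against 29.5% of the regions over 10 kb downstream. Of the 218 regions of the whole sheet with a height of at least 60, 14 were members, and of the 50 tallest regions 3 were. The authors' log2 ratio of ChIP signal, Dex over DMSO, had a median of 1.85 over 3818 members with a value, against 2.72, 2.80 and 3.22 in the 3 other position classes. A log2 ratio above 3 was found in 7.49% of members and in 38.9%, 41.7% and 58.8% of those classes. Without replicate values for the ChIP no test of these differences was run.

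Members without a CpG island had about the same height but a higher ratio. The median height was 19.6 over 257 members without an island and 19.7 over 3565 members with one, while the median log2 ratio was 2.43 without and 1.81 with an island. A height of at least 30 was reached by 17.1% of members without an island and by 4.18% of those with one. Over all members the rank correlation of height and ratio was weak (Spearman's coefficient 0.199, n = 3818 regions that share the same libraries). If the height is the Dex average, dividing it by the unlogged ratio gives an implied control average. This was not checked against single samples, and the implied value exceeds the height in the 2 members with a log2 ratio below 0. The lowest implied value was 1.00, shared by 26 members within 0.01. On this reading the ratio of these 26 is set by their height alone, and 19 of the 59 members with a log2 ratio of at least 4 were among them.

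**Figure D2:**
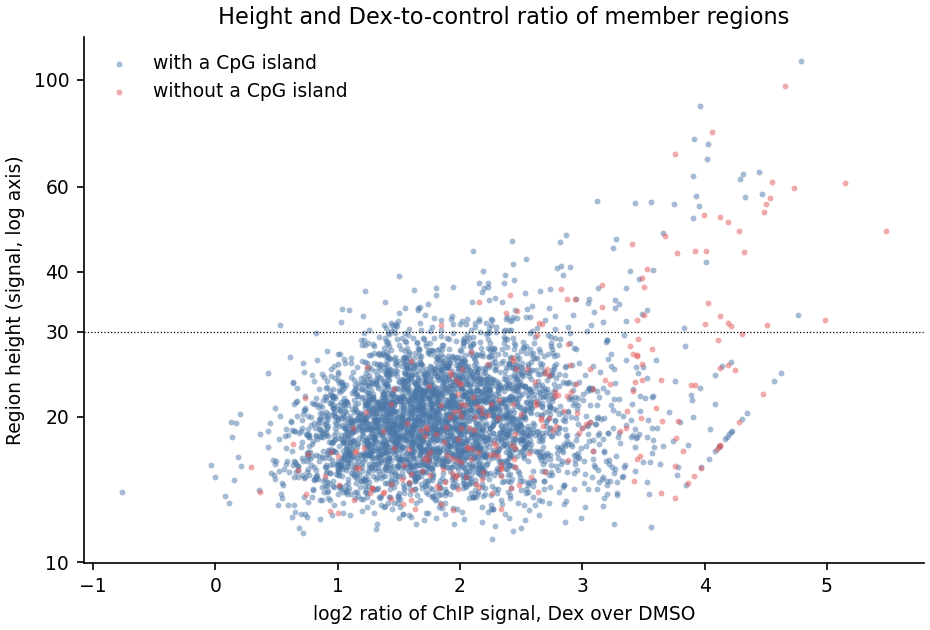
Height of each member region (y axis, log scale, in the authors' signal units) against its log2 ratio of ChIP signal in Dex over DMSO (x axis), coloured by the presence of a CpG island, with a dotted line at a height of 30. Regions above a height of 60 all have a log2 ratio over 3, and the oblique line of points at the right edge are regions whose implied control average was 1.

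The tallest members stood at genes of the muscle cytoskeleton, the mitochondrion and cell junctions as well as at genes not measured. Plekha7, an adherens junction protein, had the tallest region, of height 109.6, at chr1:192397045-192397948 in rn5, 93 bases upstream of the start. It had 11.6 FPKM at 1 h, 20.03 FPKM at 24 h and 12.2 FPKM in control and was not called (log2 fold at 24 h 0.72, SE 0.37). Trim54, which encodes the sarcomeric protein MuRF3, followed with a height of 96.9 at chr6:36438743-36440148, 369 bases upstream, and 72.1 FPKM at 1 h, 98.7 FPKM at 24 h and 69.4 FPKM in control. Ankrd1, the cardiac ankyrin repeat protein, had a height of 78.1 and 2062 FPKM at 1 h, 2893 FPKM at 24 h and 2349 FPKM in control. Slc25a4, the ADP/ATP translocase of heart and muscle mitochondria, had a height of 75.3 and 738 FPKM at 1 h, 1132 FPKM at 24 h and 740 FPKM in control. RGD1566380, Adamts10 (a secreted metalloprotease) and Spice1 (a centriole protein) had heights of 88.4, 73.5 and 68.7. LOC100910949 and Eva1c had no row in the expression table. Klf15, at a height of 64.4, was the only one of the 10 tallest that the authors called.

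The highest log2 ratio, 5.48, belonged to a region 369 bases upstream of Colq, the collagen tail of acetylcholinesterase, which had 12.6 FPKM at 1 h, 12.4 FPKM at 24 h and 12.1 FPKM in control. Slc10a6, a carrier of sulphated steroids, followed with 5.15, Mecom, a zinc-finger transcription factor, with 4.99, Plekha7 with 4.79 and Tead3, a TEAD transcription factor, with 4.76. The lowest were −0.76 at Mir760, which is listed at 0 in all groups, and −0.03 at Aacs, 0.00 at Mphosph10, 0.08 at Ube2j2 and 0.11 at Rnf216, with heights of at most 15.9. None of the 4 last-named genes was called.

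The genes at the members were, for the most part, well expressed, and few were called changed. Of the 3822 members 3267 were paired with a row of the expression table, and they belonged to 2974 distinct genes, 2914 of them with at least 1 FPKM in a group. Their median level was 21.6 FPKM at 1 h, 21.9 FPKM at 24 h and 20.7 FPKM in control, against 4.37, 4.34 and 4.31 FPKM over all 17450 rows. The median log2 fold of the expressed genes was 0.023 at 1 h and 0.036 at 24 h over control, against −0.0036 and −0.0012 over all expressed genes. A gene is called where the authors marked it significant, at a q-value up to 0.05, in a test on these pools of libraries. Each error given with a log2 fold is a standard error (SE), the fold divided by the authors' test statistic.

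After 1 h of Dex 38 of 2946 tested member genes were called, which is 1.29% (95% exact binomial interval 0.914 to 1.77%, counting error only), against 0.863% of all 11582 tested genes. Of these 27 were higher (0.916%, against 0.622% of all tested genes) and 11 lower (0.373%, against 0.242%). Other genes of the sheet, kept as the nearest gene of no member region, had 1.28% called, and genes with no region in the sheet 0.508%. These other genes include those that the sheet lists at a member region behind a nearer gene. After 24 h 147 of 2945 member genes were called, 4.99% (4.23 to 5.84%), against 6.22% of all tested genes. Of these 122 were higher (4.14%, against 4.18%) and 25 lower (0.849%, against 2.04%). The other genes of the sheet had 7.92% called at 24 h, and genes without a region 6.15%. For 24 h over 1 h 101 of 2946 member genes were called (3.43%, against 4.92%), 83 higher (2.82%, against 3.31%) and 18 lower (0.611%, against 1.61%). With the tested genes kept to those of at least 1 FPKM in a group, 5.04% of members and 6.35% of all genes were called at 24 h. The share of members called stood above that of all genes at 1 h and below it at 24 h, and these differences were not tested.

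Among the genes higher at 1 h were regulators of fuel use, Krüppel-like factors and signalling inhibitors. Pdk4, the kinase that turns off pyruvate dehydrogenase, had 32.8 FPKM at 1 h, 10.7 FPKM at 24 h and 4.06 FPKM in control. Its log2 fold at 1 h was 3.01 (SE 0.38), and the region, chr4:30463931-30464224 in rn5, lay 377 bases upstream, had a height of 23.5 and no CpG island. Abra, an actin-binding protein of muscle, had 35.3 FPKM at 1 h, 15.2 FPKM at 24 h and 6.69 FPKM in control (log2 fold at 1 h 2.40, SE 0.36). Both were high at 1 h, lower at 24 h and lowest in control. Klf15, a Krüppel-like factor that acts in heart and muscle metabolism, had 27.2 FPKM at 1 h, 24.7 FPKM at 24 h and 6.22 FPKM in control (log2 fold at 1 h 2.13, SE 0.34), so that both Dex groups stood well above the control. Its region, chr4:186906060-186907298, lay 629 bases downstream of the start, within the gene.

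Arrdc2, an arrestin-domain protein, had 10.7 FPKM at 1 h, 3.73 FPKM at 24 h and 2.69 FPKM in control, and was called at 1 h but not at 24 h. Nfkbia had 54.6 FPKM at 1 h, 35.8 FPKM at 24 h and 16.3 FPKM in control (log2 fold at 1 h 1.74, SE 0.33). It had a pair of member regions, 163 and 779 bases downstream, with heights of 34.9 and 41.9. Pfkfb3, which makes an activator of glycolysis, had 19.1 FPKM at 1 h, 15.9 FPKM at 24 h and 6.45 FPKM in control. Errfi1 had 56.7 FPKM at 1 h, 40.3 FPKM at 24 h and 20.6 FPKM in control. In all of these the 1 h value was the highest of the 3 groups. Rgcc and Slc10a6 differed, with their highest value at 24 h. Rgcc had 18.8 FPKM at 1 h, 114 FPKM at 24 h and 6.26 FPKM in control, with its region, of height 15.2, exactly at the start. Slc10a6 had 4.18 FPKM at 1 h, 12.8 FPKM at 24 h and 1.34 FPKM in control. Slc10a6 and Sesn1, a stress-induced inhibitor of mTORC1 with 28.7 FPKM at 1 h, 17.8 FPKM at 24 h and 7.31 FPKM in control, are uncertain, because their row shares its symbol or locus with another.

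The 11 genes lower at 1 h coded for transcription factors, feedback regulators and signalling proteins, and in each the 1 h value was the lowest of the 3 groups. Cxcr4, a chemokine receptor, had 6.67 FPKM at 1 h, 19.4 FPKM at 24 h and 19.2 FPKM in control (log2 fold at 1 h −1.52, SE 0.36), so that the 24 h value stood at the control level. Phlda1 had 15.4 FPKM at 1 h, 30.4 FPKM at 24 h and 42.5 FPKM in control (log2 fold at 1 h −1.46, SE 0.33). Socs3, an inhibitor of cytokine signalling, had 1.89 FPKM at 1 h, 3.67 FPKM at 24 h and 5.07 FPKM in control. Plk2 was the only one of the 11 called lower at 24 h as well, with 32.9 FPKM at 1 h, 48.8 FPKM at 24 h and 82.4 FPKM in control. Hes1 had 15.5 FPKM at 1 h, 29.2 FPKM at 24 h and 34.5 FPKM in control. Ier3, an immediate early gene of cell survival, had 49.3 FPKM at 1 h, 76.0 FPKM at 24 h and 108.7 FPKM in control. Klf10, a Krüppel-like factor induced by TGF-beta, had 7.08 FPKM at 1 h, 14.6 FPKM at 24 h and 14.0 FPKM in control. Irf1 had 6.36 FPKM at 1 h, 7.53 FPKM at 24 h and 11.0 FPKM in control. The heights of the regions at these 8 genes lay between 14.5 and 26.3, against a median of 19.7 over all members. In the authors' deposited table, whose q-values are Benjamini-Hochberg adjusted, all genes named for 1 h had a q-value of 0.00238, the smallest there is, except Socs3 with 0.0191 and Irf1 with 0.0499.

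**Figure D3:**
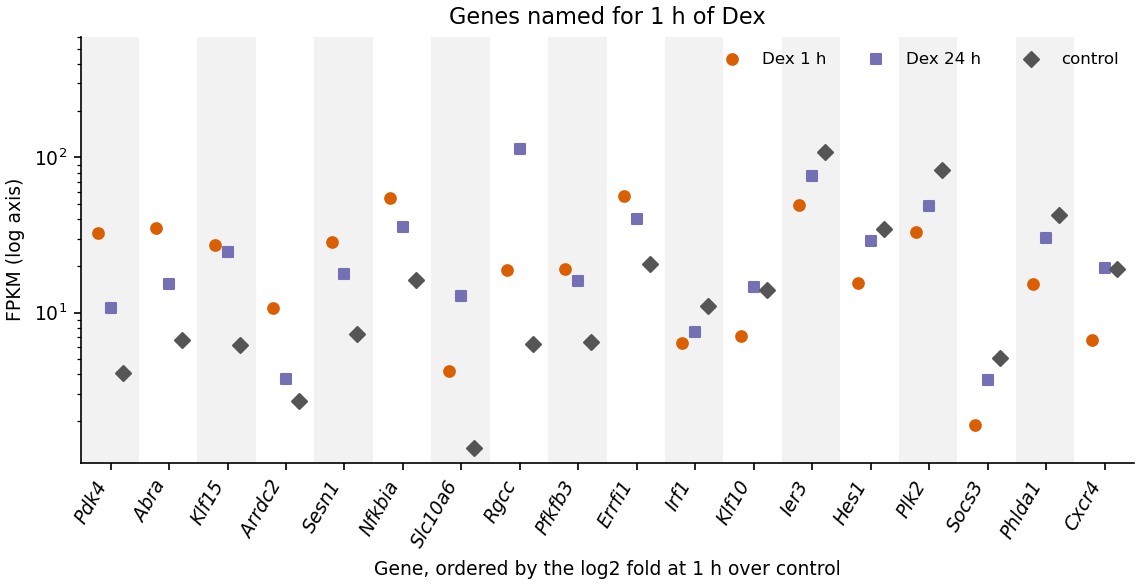
FPKM (y axis, log scale) of the 18 member genes named for 1 h, at 1 h of Dex (circles), 24 h of Dex (squares) and in control (diamonds), 1 pooled value per group without error bars. In the 10 genes at the left the 1 h value stands above the control, and in the 8 genes at the right the 1 h value is the lowest of the 3.

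The genes called higher at 24 h with the greatest folds covered sulphate metabolism, transcription, energy transfer and the GR feedback loop, and several had almost no RNA in control. Sult1a1, a phenol sulphotransferase, had 0.541 FPKM at 1 h, 11.95 FPKM at 24 h and 0.121 FPKM in control. Its log2 fold at 24 h was 6.63 (SE 0.89), or 3.53 with 1 FPKM added to both values, and its region, chr1:205082928-205083446, 82 bases upstream and without a CpG island, had a height of 59.7. Zbtb16, a zinc-finger repressor also called PLZF, had 0.732 FPKM at 1 h, 21.1 FPKM at 24 h and 0.613 FPKM in control (log2 fold at 24 h 5.10, SE 0.46). Htr1b, a serotonin receptor, had 0.354 FPKM at 1 h, 2.77 FPKM at 24 h and 0.13 FPKM in control. Lcn2, a siderophore-binding lipocalin, had 3.91 FPKM at 1 h, 35.7 FPKM at 24 h and 2.15 FPKM in control (log2 fold at 24 h 4.05, SE 0.46). In each of these the 24 h value stood far above the other groups.

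Ckmt2, the mitochondrial creatine kinase of striated muscle, had 5.49 FPKM at 1 h, 39.5 FPKM at 24 h and 5.01 FPKM in control (log2 fold at 24 h 2.98, SE 0.38). Sulf2, an enzyme that removes sulphate groups from heparan sulphate, had 39.1 FPKM at 1 h, 196.6 FPKM at 24 h and 39.0 FPKM in control (log2 fold at 24 h 2.33, SE 0.30). In both the 1 h value stood close to the control. Fkbp5, a co-chaperone that lowers hormone binding by GR, had 16.8 FPKM at 1 h, 57.7 FPKM at 24 h and 8.97 FPKM in control and was called higher at both times. Its member region lay 938 bases downstream, with a height of 24.7, and the sheet paired the gene with 5 more regions beyond the window. Arhgef37, by its name a guanine nucleotide exchange factor, had 0.527 FPKM at 1 h, 2.27 FPKM at 24 h and 0.409 FPKM in control. Orm1, an acute phase plasma protein, had 2.31 FPKM at 1 h, 109 FPKM at 24 h and 0.026 FPKM in control. The authors called it for 24 h over 1 h but for neither Dex time over control (SE of the log2 fold at 24 h 2.35), and its region, 292 bases upstream and without a CpG island, had a height of 55.3.

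The genes lower at 24 h with the greatest falls included ion channel, guidance and receptor genes. Hcn4, a pacemaker channel, had 5.15 FPKM at 1 h, 2.14 FPKM at 24 h and 6.67 FPKM in control (log2 fold at 24 h −1.64, SE 0.38). Mmp15, a membrane-bound metalloproteinase, had 10.8 FPKM at 1 h, 4.25 FPKM at 24 h and 12.7 FPKM in control (log2 fold at 24 h −1.58, SE 0.34). Epha3, an ephrin receptor, had 5.89 FPKM at 1 h, 2.07 FPKM at 24 h and 6.14 FPKM in control. Ntn1, the guidance cue netrin, had 5.71 FPKM at 1 h, 2.42 FPKM at 24 h and 6.14 FPKM in control. In these 4 genes the 1 h value stood close to the control and the 24 h value below both.

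Nr3c2, the mineralocorticoid receptor and closest relative of GR, had 2.23 FPKM at 1 h, 0.945 FPKM at 24 h and 2.17 FPKM in control (log2 fold at 24 h −1.20, SE 0.40). It had 3 member regions, the tallest of height 19.0. Sntb1, a syntrophin of the dystrophin complex, had 6.79 FPKM at 1 h, 3.18 FPKM at 24 h and 7.36 FPKM in control. Tmem196, a transmembrane protein, and Vangl2, a planar cell polarity protein, had 1.06 FPKM and 0.67 FPKM at 24 h, against 2.63 FPKM and 1.57 FPKM in control. The heights of the nearest regions at these 8 genes lay between 11.6 and 18.3, while other genes called lower at 24 h had taller regions, such as Gmpr at 22.0. In the authors' deposited table the genes named for 24 h over control had a q-value of 0.00238, except Nr3c2 with 0.00616, Htr1b with 0.011, Sult1a1 with 0.0138, and Tmem196 and Vangl2 with 0.0164 each.

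**Figure D4:**
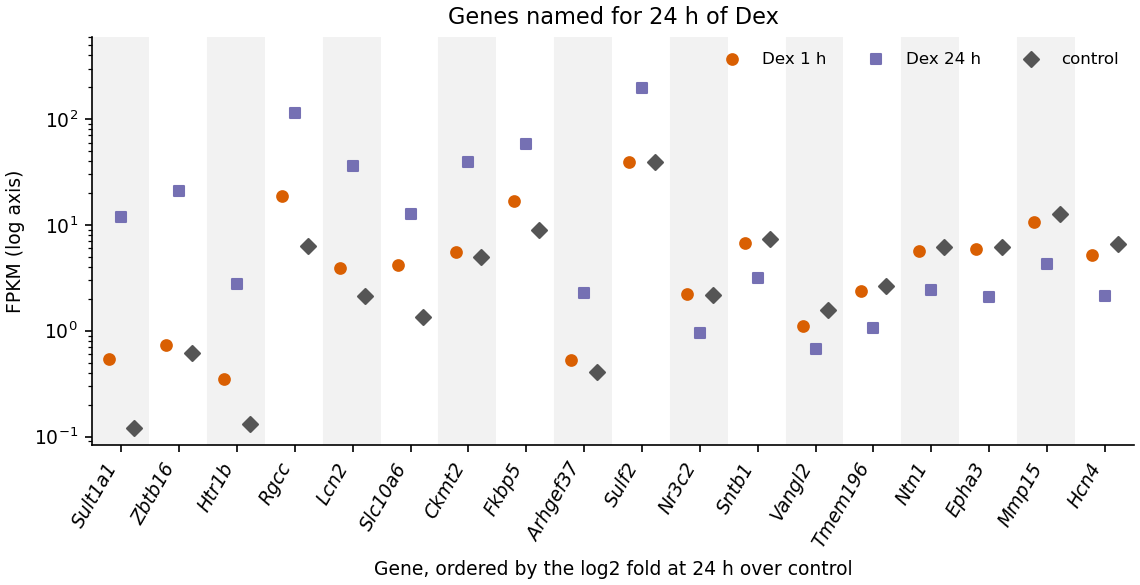
FPKM (y axis, log scale) of the 18 member genes named for 24 h, at 1 h of Dex (circles), 24 h of Dex (squares) and in control (diamonds), 1 pooled value per group without error bars. In the 10 genes at the left the 24 h value is the highest of the 3, and in the 8 genes at the right the lowest, with the 1 h value near the control for most.

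Tall member regions stood at genes that were called higher more often. Member genes called lower were too few to compare, 0.373% of those tested at 1 h and 0.849% at 24 h. At 24 h 4.54% of the 1587 tested genes at regions of height under 20 were called (95% exact interval 3.57 to 5.68%) and 4.48% of the 1339 at heights of 20 to 30 (3.44 to 5.73%). The share was 12.2% of 123 genes at heights of 30 to 40 (6.99 to 19.3%), 30.6% of 36 genes at 40 to 60 (16.3 to 48.1%) and 3 of 12 genes at 60 or more (5.49 to 57.2%), against 6.22% of all tested genes. At 1 h 8 of 170 tested genes at a height of at least 30 were called (4.71%, 2.05 to 9.06%) and 34 of 2809 at a height under 30 (1.21%, 0.84 to 1.69%). A gene with regions in more than 1 class counts in each, and the differences between classes were not tested. Of the 170 genes at a height of at least 30, 28 were called higher at 24 h (16.5%, against 4.18% of all tested genes). None was called lower, against 0.849% of all tested member genes and 2.04% of all tested genes. At an unadjusted p-value under 0.05 in the authors' Cuffdiff test 46 were higher and 2 lower at 24 h, and 18 higher and 2 lower at 1 h. Over all tested genes the same counts were 992 and 680 of 11673 at 24 h, and 210 and 110 of 11582 at 1 h. All 11 member genes lower at 1 h and all 25 lower at 24 h had member regions under a height of 30 alone. Most tested member genes had such a region (2809 of 2946 at 1 h), so the absence of lower calls at tall regions says little.

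**Figure D5:**
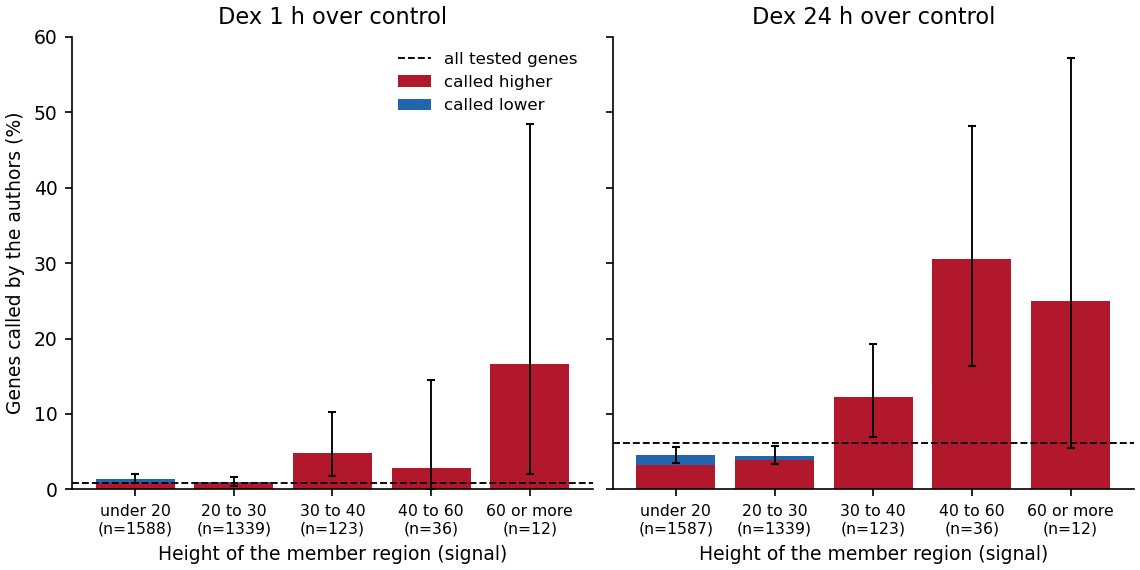
Share of tested member genes that the authors called, in percent (y axis), by the height of the member region (x axis), at 1 h (left) and at 24 h (right) of Dex over control, split into called higher and called lower. Error bars are exact 95% binomial intervals (counting error only), dashed lines are the shares of all tested genes, 0.863% at 1 h and 6.22% at 24 h, and the bars at 24 h reach 30.6% for heights of 40 to 60.

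The called genes at tall regions without a CpG island included muscle, coagulation and secreted factors. Of the 36 tested genes at the 44 regions with a height of at least 30 and no island, 13 were called higher at 24 h (36.1%, exact interval 20.8 to 53.8%). Of the 134 tested genes at regions with an island that also reached a height of 30, 15 were (11.2%, 6.40 to 17.8%). The difference was not tested. Among these regions those without an island were also taller, with a median height of 38.2 against 33.4. They had the higher ratio as well, with medians of 3.96 without and 2.38 with an island. Slc10a6, Sult1a1, Lcn2 and Fam107a, described above, were among the 13, and the genes named next were chosen from them after their values were seen. F3, tissue factor, had 28.4 FPKM at 1 h, 31.3 FPKM at 24 h and 12.2 FPKM in control. Popdc2, a cyclic-AMP-binding protein of muscle membranes, had 127 FPKM at 1 h, 238 FPKM at 24 h and 113 FPKM in control. Hspb7, a small heat shock protein of heart, had 376 FPKM at 1 h, 770.3 FPKM at 24 h and 405 FPKM in control. Fstl3, a secreted binder of activin and myostatin, had 46.4 FPKM at 1 h, 138 FPKM at 24 h and 46.1 FPKM in control. Of these 4 genes F3 was called higher at 1 h as well.

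The distance within the window and further regions of the same gene went with the share called. Genes whose member region lay 501 to 1000 bases from the start were called at 24 h in 10.6% of 188 cases upstream and in 9.25% of 281 cases downstream, against 4.35% of 1357 genes with a region from 0 to 250 bases downstream. At 1 h the shares were 2.66% and 4.27% in the outer bins and 1.03% in the inner one. Of the genes that the sheet also paired with a region beyond the window, 26 of 755 (3.44%) were called at 1 h and 87 of 755 (11.5%) at 24 h. Of those with member regions alone, 12 of 2191 (0.548%) were called at 1 h and 60 of 2190 (2.74%) at 24 h. Over all tested genes the shares were 0.863% at 1 h and 6.22% at 24 h, above those of genes with member regions alone. Among the 755 genes with both kinds of region 79 were called higher (10.5%, against 4.18% of all tested genes) and 8 lower (1.06%, against 2.04%) at 24 h. These shares share libraries and genes, and their differences were not tested.

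Several regions stood at 1 start in some genes, and several starts near 1 region in others. At least 2 member regions were found at 274 genes and at least 3 at 18 genes, among them the nuclear receptor co-repressor Ncor1, Foxo1 and Nr3c2. Stt3b, a catalytic subunit of the oligosaccharyltransferase, had the most, 4, between 709 bases upstream and 844 bases downstream. It had 61.7 FPKM at 1 h, 108 FPKM at 24 h and 50.03 FPKM in control and was called higher at 24 h. Near 395 members (10.3%) the sheet placed at least 2 gene symbols within the window. In 188 of these exactly 2 tested genes with rows of their own were involved, and the authors called both in 0 cases. They called 1 of the pair in 1 case at 1 h, Vmp1 beside Ptrh2, and in 2 cases at 24 h, Vmp1 again and Dnajb4 beside Fubp1. Of tested member genes 1.29% were called at 1 h and 4.99% at 24 h, against 0.863% and 6.22% of all tested genes. With such shares pairs with both called would be rare, so that 0 cases says little. The log2 fold at 24 h was 0.79 for Vmp1, an autophagy protein, and −0.08 for Ptrh2, and it was 0.91 for Dnajb4, a heat shock co-chaperone, and −0.12 for Fubp1.

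Known GR targets among the members were called higher and never lower. The list of classical targets had 46 rows, 25 of them members, and it holds genes known for their glucocorticoid response, chosen with earlier results of these data known, so its direction is no independent evidence. Of the 25, 12 were called higher and 0 lower at 1 h, against 0.622% and 0.242% of all tested genes. At 24 h 16 were called higher and 0 lower, against 4.18% and 2.04%. At an unadjusted p-value under 0.05 in Cuffdiff's test 19 were higher at 1 h and 18 at 24 h, with 0 lower at each time. The median log2 fold of the members was 0.89 at 1 h and 0.97 at 24 h. Of the list's genes without a member region 5 of 17 were called higher at 1 h and 11 of 18 at 24 h. Besides those described above, Klf9 had 43.0 FPKM at 1 h, 50.9 FPKM at 24 h and 17.2 FPKM in control, and Cebpd, a C/EBP transcription factor, 50.5 FPKM at 1 h, 35.5 FPKM at 24 h and 21.2 FPKM in control. Ddit4, an mTORC1 inhibitor also called REDD1, had 50.6 FPKM at 1 h, 46.1 FPKM at 24 h and 31.2 FPKM in control and was called at 1 h.

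Of the immediate early genes, which respond to growth signals without new protein synthesis, a few were called lower at 1 h and different ones higher at 24 h. Of 17 members 0 were called higher and 4 lower at 1 h (Ier3, Klf10, Junb and Ier5), and 4 were called higher and 0 lower at 24 h (Klf2, Zfp36, Klf6 and Btg2). Over all tested genes 0.622% were called higher and 0.242% lower at 1 h, and 4.18% higher and 2.04% lower at 24 h, and these shares hold as background for every list. Of the list's 10 genes without a member region 1 was called lower at 1 h and 1 higher at 24 h. At an unadjusted p-value under 0.05 in Cuffdiff's test 2 were higher at 1 h and 1 lower at 24 h. Junb, an AP-1 subunit, had 23.5 FPKM at 1 h, 43.0 FPKM at 24 h and 39.9 FPKM in control (log2 fold at 1 h −0.76, SE 0.32). Ier5 had 31.3 FPKM at 1 h, 51.2 FPKM at 24 h and 51.9 FPKM in control. Klf2, a Krüppel-like factor with a region of height 62.3, had 38.9 FPKM at 1 h, 49.1 FPKM at 24 h and 27.0 FPKM in control (log2 fold at 24 h 0.86, SE 0.34). Zfp36, which destabilises AU-rich mRNAs, had 56.6 FPKM at 1 h, 68.2 FPKM at 24 h and 40.4 FPKM in control. The median log2 fold of the 17 members was 0.06 at 1 h and 0.24 at 24 h. For the list's genes without a member region it was −0.15 at 1 h and 0.04 at 24 h.

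Of 11 Krüppel-like, C/EBP, FoxO and Hes factors, 3 were called higher (Klf15, Klf9 and Cebpd) and 2 lower (Hes1 and Klf10) at 1 h, and 5 higher and 0 lower at 24 h. Foxo3, a FoxO factor with a member region of height 31.2, had 11.4 FPKM at 1 h, 14.9 FPKM at 24 h and 7.91 FPKM in control and was called higher at 24 h. Of 14 members for glucose metabolism and insulin signalling, Pdk4 and Pfkfb3 were called higher and Irs1, the insulin receptor substrate, lower at 1 h, and Slc2a1, the glucose transporter GLUT1, joined at 24 h. Irs1 had 4.52 FPKM at 1 h, 6.88 FPKM at 24 h and 7.83 FPKM in control, and 3 member regions. Slc2a1 had 46.3 FPKM at 1 h, 115.8 FPKM at 24 h and 43.1 FPKM in control.

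Of 6 sarcomere and Z-disc members Abra was called higher at 1 h, and Abra, Des and Myoz2 at 24 h. Des, which encodes the muscle intermediate filament desmin, had 466 FPKM at 1 h, 1191 FPKM at 24 h and 446 FPKM in control (log2 fold at 24 h 1.42, SE 0.31). Myoz2, a calcineurin-binding Z-disc protein, had 167 FPKM at 1 h, 245 FPKM at 24 h and 153 FPKM in control. The list's 18 genes without a member region had none called higher and 1 lower at 24 h. Of 7 calcium and ion handling members Hcn4 was called lower at 24 h and Cacna1h, a T-type calcium channel whose row is uncertain, higher, with 12.6 FPKM at 1 h, 31.3 FPKM at 24 h and 11.9 FPKM in control. Of that list's 19 tested genes without a member region 3 were called higher and 6 lower at 24 h.

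Of 11 growth factor and cytokine feedback inhibitors, Errfi1 was called higher and Socs3 lower at 1 h, and Errfi1 and Cblb were called higher and Socs2 lower at 24 h. Cblb, a ubiquitin ligase, had 10.9 FPKM at 1 h, 18.7 FPKM at 24 h and 10.4 FPKM in control, and Socs2 had 17.5 FPKM at 1 h, 10.5 FPKM at 24 h and 19.3 FPKM in control. Of 7 members for NF-kB and inflammatory signalling, Nfkbia was called higher and Irf1 lower at 1 h. At 24 h Nfkbia and the chemokine gene Ccl20 were called higher, the second with 2.25 FPKM at 1 h, 5.19 FPKM at 24 h and 1.78 FPKM in control. Of 4 clock members Npas2, a partner of BMAL1, was called higher at 24 h, with 0.896 FPKM at 1 h, 2.24 FPKM at 24 h and 0.674 FPKM in control. Of 11 members for GR and mineralocorticoid receptor signalling Fkbp5 was called higher at both times and Nr3c2 lower at 24 h.

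Of 10 members for atrophy, autophagy and mTOR inhibition, Sesn1 and Ddit4 were called higher at 1 h and Sesn1 at 24 h. Of 10 apoptosis and survival members only Bcl2l1, which encodes the survival factor Bcl-xL, was called, higher at 24 h, with 69.9 FPKM at 1 h, 83.2 FPKM at 24 h and 44.9 FPKM in control. Of 7 cell cycle members 0 were called at either time, with 1 higher and 2 lower at 24 h at an unadjusted p-value under 0.05 in Cuffdiff's test, and of 2 lipid metabolism members 0 were called and 0 reached that p-value. Of 23 tested lipid metabolism genes without a member region 5 were called higher and 2 lower at 24 h. The median log2 fold of the members was compared over the lists with at least 5 of them, the classical targets aside. It lay between −0.11 and 0.24 at 1 h and between −0.12 and 0.72 at 24 h. Housekeeping genes carried GR signal at their starts, and no member among those of the next lists was called. Of 99 ribosomal protein rows 37 were members, with heights between 13.7 and 32.9, and of 79 rows for the respiratory chain and ATP synthase 23 were, with heights between 12.8 and 30.2. For neither list was a member called at any time, and 0 reached an unadjusted p-value under 0.05 in Cuffdiff's test. The tested genes of both lists without a member region, 61 and 54, likewise had 0 called at 1 h and 24 h. Rplp1, of the ribosomal stalk, had 4123 FPKM at 1 h, 4130 FPKM at 24 h and 3772 FPKM in control, and Cox4i1, of cytochrome oxidase, 1012 FPKM at 1 h, 1076 FPKM at 24 h and 1066 FPKM in control.

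The window cut through a continuous range of distances. Just inside its ends lay regions 994 bases upstream of Qk, an RNA-binding protein, with a height of 20.2, and of Cacna1h, with a height of 23.2, and 1000 bases downstream of Hspb7 and Csdc2, with heights of 17.3 and 23.3. Just outside lay regions 1002 bases upstream of Nr2f6, an orphan nuclear receptor, with a height of 18.3, and 1005 bases upstream of Morc1, with 14.1. Downstream, 1002 bases from the start, followed Ptprk, a receptor phosphatase, with 15.8, and Atp4a, the gastric proton pump, with 34.8.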

How the data were processed

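RNA-seq covered myocytes after 1 h and 24 h of Dex and ethanol-treated myocytes, each group being 1 sample. The submitters' processing notes list TopHat, Cufflinks, Cuffdiff and the build rn5 and give no versions or roles. The authors deposited, per the file headers, an FPKM for each of 17450 rows in each group, and depth is unknown. The p-value, the q-value and the test statistic (a score of the authors' test) were deposited per pair of groups. Benjamini-Hochberg adjustment of all 34896 p-values together gives the deposited q-values. Whether the 2 libraries per group entered the test separately, and whether they came from separate preparations, is not stated by labels or headers.

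The ChIP experiment belongs to another series. Per the file headers the authors deposited for each region a height, which is a signal (the highest average), a log2 ratio of Dex over DMSO, the distance to the gene start, and counts of CpG islands and genes. Peak caller, scaling and the Dex time of the ChIP were not given in the sources used here, while 6 ChIP columns of single samples were left out. Regions are given as deposited. For 92.7% of member pairs the distance fitted the rn5 locus of the expression row within 2 bases, while 109 pairs were off by more than 1000 bases.

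Members were found as described, with ties going to the pair with an expression row. Log2 folds are plain ratios of the deposited FPKM, with none where a group is at 0, and medians cover genes with at least 1 FPKM in a group. With 1 sample per group no test was run here: calls are the authors' mark, and exact Clopper-Pearson 95% intervals cover counting error only. Members, 16 gene lists, marker lists, the rule for named genes and the steps of height were chosen with earlier results of these data known. The rule took called member genes of at least 1 FPKM, the 10 greatest and 8 smallest log2 folds at each time (5 and 5 for 24 h over 1 h), the 10 tallest regions, the 5 highest and 5 lowest ratios, up to 4 called genes per list and the regions nearest the window's ends. Rows sharing their symbol or locus with another (225 member genes) are uncertain, and symbols turned into dates are not named. Promoters came from RefSeq (GRCr8), matched by symbol, gene ID or older symbol for 81.3% of 3466 member symbols. The membership rule and the motif search were tested on simulated data. Python 3.11.15, pandas 2.3.3, NumPy 2.4.6, SciPy 1.17.1 and matplotlib 3.10.9 were used. Alternatives were other windows, sides of the start, pairings, call rules, filters and pseudocounts. Some results are not reported here.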

Additional observations from a re-analysis of the deposited data

Results flagged for a closer look

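Of the 72 genes named by the rule, 37 differed between the Dex times in the authors' own test of 24 h over 1 h, 24 of them higher and 13 lower at 24 h. Over all tested genes 4.92% were called in that comparison, but the naming rule took called genes with extreme folds, also between the Dex times, so the count follows from the choice. This comparison does not use the control sample. The greatest log2 differences, 24 h over 1 h, were 5.56 in Orm1, 4.85 in Zbtb16, 4.47 in Sult1a1, 3.19 in Lcn2 and 2.97 in Htr1b. Further differences were 2.85 in Ckmt2, 2.60 in Rgcc, 2.33 in Sulf2, 1.78 in Fkbp5, 1.61 in Slc10a6, 1.35 in Des, 1.32 in Slc2a1, 1.32 in Cacna1h, 1.21 in Ccl20, 2.11 in Arhgef37, 1.32 in Npas2, 1.17 in Fam107a and 0.78 in Cblb.

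In a further set the 1 h value was below the control and called lower than it. The log2 difference, 24 h over 1 h, was 1.54 in Cxcr4, 1.04 in Klf10, 0.98 in Phlda1, 0.91 in Hes1, 0.87 in Junb and 0.71 in Ier5.

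Among the genes lower at 24 h, Pdk4 (−1.62), Arrdc2 (−1.52), Abra (−1.21) and Sesn1 (−0.69) had been called higher at 1 h over control. Epha3 (−1.50), Mmp15 (−1.34), Hcn4 (−1.27), Nr3c2 (−1.24), Ntn1 (−1.24), Tmem196 (−1.17) and Sntb1 (−1.10) were called lower at 24 h over control, as was Tecrl. Rgs2, a regulator of G protein signalling whose row is uncertain, had 16.1 FPKM at 24 h, 54.8 FPKM at 1 h and 25.5 FPKM in control (−1.77), and was called over control at neither time. Tecrl, an endoplasmic reticulum protein of heart muscle, had 1.75 FPKM at 24 h, 5.21 FPKM at 1 h and 4.01 FPKM in control (−1.57). No cause of these differences was tested.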

How the results depend on the processing

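Of 71 values under alternatives, 58 stayed within the 95% interval of the reported value (within 1.5 times for the number of regions). The other 13 moved beyond it. The median log2 folds stayed positive under every alternative, with lowest values of 0.021 at 1 h and 0.033 at 24 h. The median ChIP log2 ratio moved to 1.81 in a window of 500 bases, 1.89 in one of 2000 bases, 1.92 for regions upstream of or at the start, 1.81 downstream and 1.98 for regions at or above the median height of all regions. These taller regions also gave a median log2 fold of 0.038 at 1 h and 0.060 at 24 h, and 5.98% called at 24 h. Regions upstream of or at the start had 1.91% of genes called at 1 h and 6.30% at 24 h, and 4.77% between both Dex times, so that at 24 h their share stood above the 6.22% of all tested genes and no longer below it. With a q-value of at most 0.01, 3.43% were called at 24 h and 2.61% for 24 h over 1 h, against 4.21% and 3.22% of all tested genes. The cause was not tested, except that a stricter q-value calls fewer genes by construction. The number of regions was 3226 in the narrower and 4225 in the wider window. An alternative chosen after seeing the data, keeping pairs whose locus fitted the stated distance within 1000 bases, stayed within the intervals. No paired analysis was possible because each group is 1 sample, and no sample could be left out. Without depth and replicate values, low FPKM carry an unknown error, and folds of genes below 1 FPKM in control depend on the value added.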
